A study of Caenorhabditis elegans with 18 samples.

Results

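Small RNA of early Caenorhabditis elegans embryos lacking the histone methyltransferase SET-25 was compared with that of wild-type embryos, in 6 of the 18 libraries of the study. The strains were set-25(n5021) III and N2 (Bristol), with 3 numbered libraries each, from embryos taken before the bean stage. A second pair gave the loss of set-25 in worms that lack nrde-3 as well: a double mutant carrying set-25(n5021) together with the X-linked allele nrde-3(tm1116), written set-25;nrde-3, against nrde-3(tm1116) X alone, also with 3 libraries each. The strains met-2(n4256) III and met-2;nrde-3, the same allele with nrde-3(tm1116), were used for the spread shared in the model, and met-2 also for levels. Worms had grown for 60 to 65 h from synchronised first larvae, depending on the strain. The hours of each strain are not given in the labels, so strain and culture time cannot be told apart. Reads were counted in 20-bp bins of genome build ce10, both strands together, and summed to 1-kb windows. The bins cover chromosome I and the left part of chromosome II up to position 5899055. Of 20973 windows, 10730 held enough reads to be tested. Windows called in one direction that directly adjoin were joined into loci, which gave 149 loci lower and 136 higher in set-25 than in N2. The set-25 gene lies on chromosome III, outside the bins, so its loss was not checked here.

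SET-25 places methyl groups on lysine 9 of histone H3 and gives the trimethylated form that marks silent chromatin, much of it on repeats and held at the nuclear edge. In worms, small RNAs carried by nuclear Argonaute proteins can guide this mark to the genes and repeats whose transcripts they match. NRDE-3 is the Argonaute of that kind in somatic cells, and the secondary small interfering RNAs it binds are made by RNA-dependent RNA polymerases and carry triphosphate ends. TAP treatment before library preparation let such ends be sequenced beside microRNAs and fragments of other RNAs. The study asked how the methyltransferase is brought to its targets, and this comparison asks whether small RNA itself differs where the enzyme is missing. The bins carry no gene names and no strand, so loci are given by position, and an increase of small RNAs against a gene cannot be told apart from one of fragments of its transcript. Fewer cells that make a small RNA and less of it per cell cannot be told apart either.

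Libraries of set-25 held 3644082, 4022919 and 3732718 reads in the bins and those of N2 held 2829783, 4384593 and 4147419. Within a strain, libraries correlated at 0.937 to 0.950 in set-25 and at 0.949 to 0.960 in N2 (Spearman, across windows, which are not independent replicates). They differed from each other by more than counting noise, with a chi-square per degree of freedom of 4.88 to 7.52 in set-25 and 4.04 to 12.7 in N2. Each strain has 3 numbered libraries but the growth protocol speaks of 2 biological replicates, so the spread behind the p-values may be partly technical. Levels are normalised read counts, that is, reads per 1000000 of a library's total after TMM scaling (CPM). Since the scaling is set by the bulk of windows and not by the few most abundant, levels of a library need not add up to 1000000. Changes are log2 fold changes ± SE of set-25 over N2 for the window of a locus that changed most, with the edgeR p adjusted over all windows tested. A locus is described by its level summed over its windows (mean ± SD, n = 3).

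The right end of chromosome I, where the ribosomal RNA gene array lies, took 60.5%, 52.8% and 59.0% of the reads in set-25 libraries and 22.8%, 25.5% and 32.8% in N2 libraries. The 3 set-25 libraries thus lay above all N2 libraries, with means of 57.5% ± 4.09 and 27.0% ± 5.15 (exact two-sided permutation p = 0.1, the smallest that 3 against 3 allows). Of the last 13 windows of the chromosome, 11 rose, at 2.53 to 3.75 times the N2 level. The window at chrI:15060020-15061019 averaged 62643 ± 9679 CPM in set-25 and 16702 ± 4607 CPM in N2, a change of 1.91 ± 0.32 (adjusted p = 2.22e-04). The smallest rise of the 11, at chrI:15064020-15065019, was 1.34 ± 0.23 (adjusted p = 3.17e-04). The edge was sharp. In the next window outwards, chrI:15071020-15072019, levels were 132 ± 7.0 CPM in set-25 and 152 ± 6.15 CPM in N2, a change of -0.20 ± 0.12 that did not pass the threshold (adjusted p = 0.516). Ribosomal RNA genes are near-identical copies, so reads in these windows may come from any copy. In the nrde-3 background, the share was 68.8%, 58.9% and 56.3% in set-25;nrde-3 libraries and 46.0%, 54.5% and 32.9% in nrde-3 libraries, again without overlap. At chrI:15060020-15061019 the change between these strains was 1.11 (adjusted p = 0.0245), and at chrI:15064020-15065019 it was 0.62 (adjusted p = 0.108).

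**Figure D1:**
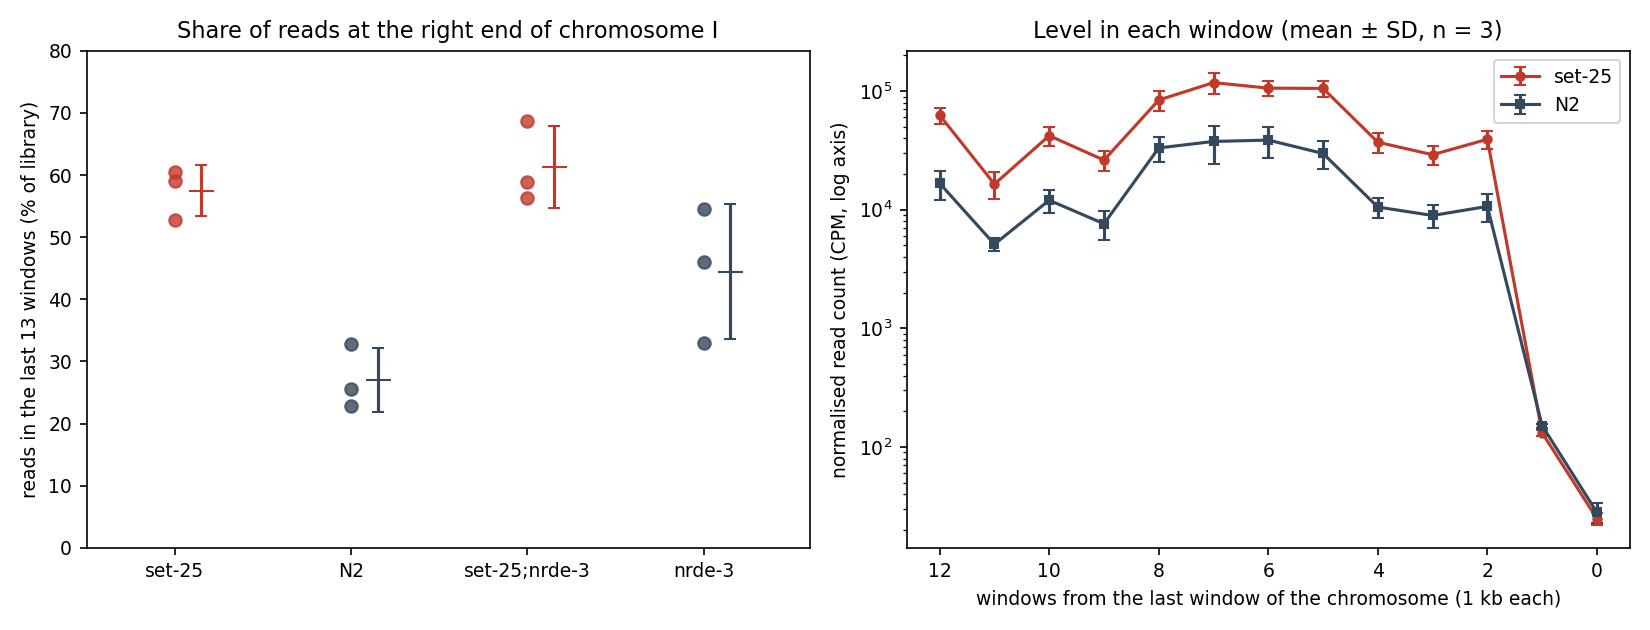
Left, percent of each library's reads in the last 13 windows of chromosome I (points, 1 library each) with mean ± SD beside them. Right, level in each of these windows (CPM on a log axis, mean ± SD, n = 3), where set-25 lies above N2 in 11 windows and the lines meet in the outermost windows.

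Away from that end, reads of chromosome II made up a smaller part in set-25. Its covered stretch held 33.0%, 33.4% and 33.0% of the reads outside the right end in set-25 libraries and 37.3%, 36.9% and 36.2% in N2 libraries. The means were 33.1% and 36.8% (exact two-sided permutation p = 0.1, the smallest that 3 against 3 allows). In the nrde-3 background the groups overlapped, at 31.2%, 30.7% and 30.8% in set-25;nrde-3 libraries and 31.0%, 31.0% and 31.9% in nrde-3 libraries. Of the windows lower in set-25, 94 of 224 or 42.0% lay on chromosome II, against 55 of 221 or 24.9% of the higher windows and 25.2% of all windows tested. Between 2 and 3 Mb of chromosome II, 33 of 456 windows fell and 18 rose. Between 1 and 2 Mb, 26 of 545 fell and 8 rose. On chromosome I, falls were densest between 12 and 13 Mb, with 23 of 459 windows against 4 rises. Rises were densest between 9 and 10 Mb, with 25 of 516 windows against 8 falls. These counts are descriptions, since neighbouring windows are not independent.

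Over all windows tested, 4.15% were called, 2.06% as higher and 2.09% as lower in set-25, or 221 and 224 windows. At least 2-fold changes made up 92 of the higher and 94 of the lower windows, and changes of at least 4-fold 13 and 10. In each of the 445 called windows the 3 set-25 libraries lay on one side of the 3 N2 libraries, which was so for 12.1% of all windows tested on the higher side and 13.3% on the lower. The scaling matters for this balance. With library totals alone as the scale, 35 windows were higher and 1931 lower, and the median of all windows moved to -0.58 from -0.01. With the right end left out of windows and totals, 211 were higher and 239 lower. Changes below are relative to the bulk of windows. Among abundant windows outside the right end, falls outnumbered rises. Of 695 windows with a mean over 100 CPM outside the right end, 103 fell and 41 rose. Outside that end no higher window exceeded 937 CPM in set-25, while 23 of the 74 windows over 1000 CPM fell. Summed over all lower loci, the level was 84132, 84958 and 76529 CPM in set-25 libraries and 151290, 146360 and 140590 CPM in N2 libraries. Over the 135 higher loci outside the right end it was 18132, 17338 and 16625 CPM in set-25 libraries and 9872, 10579 and 10506 CPM in N2 libraries. Those sums describe loci that were chosen on the same libraries.

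**Figure D2:**
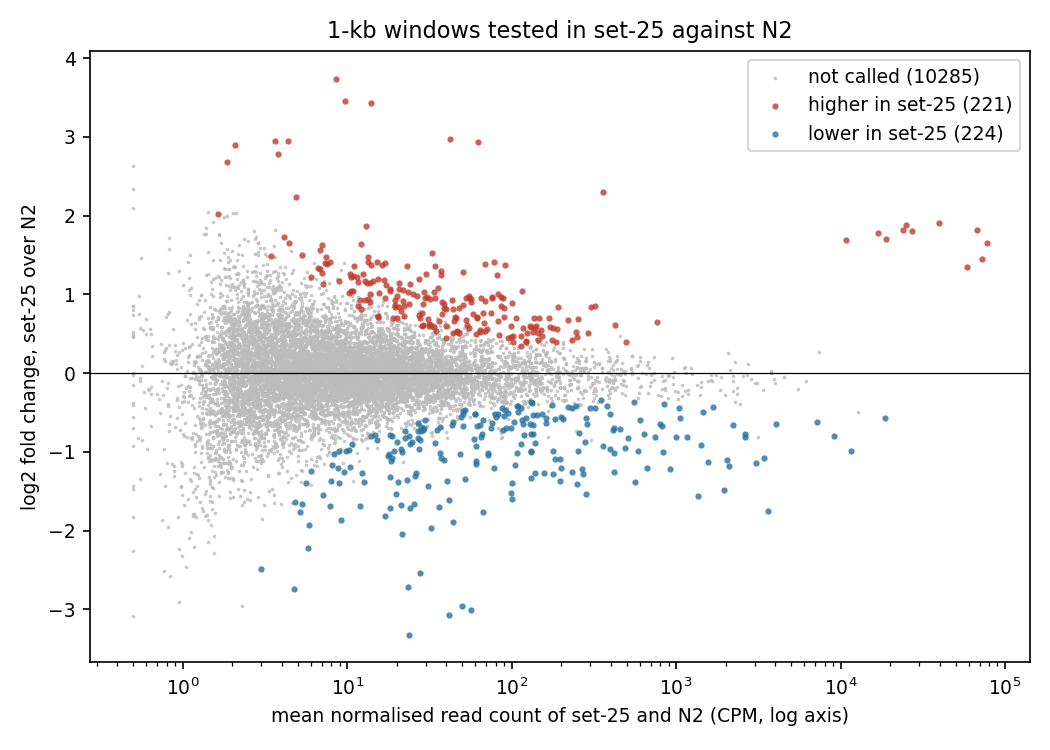
Log2 fold change of set-25 over N2 against the mean level of both strains (CPM, log axis, values under 0.5 drawn at 0.5) for the 10730 windows tested. The 11 ribosomal windows stand apart at the far right, and outside them the most abundant called windows are all lower in set-25.

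In all, 36 loci were taken by rule for description, 18 in each direction, as the longest runs, the largest fold changes and the largest differences in level. They are named F1 to F18 (lower in set-25) and R1 to R18 (higher), in order of the size of their fold change. Of the lower loci, 99 were single windows, 34 had 2 windows and 16 had 3 or more. Of the higher loci, these numbers were 87, 29 and 20. Leading windows of lower loci changed by a median of -1.19 where the locus had 2 or more windows and -0.73 where it had 1. Outside the right end the corresponding medians of higher loci were 1.04 and 0.81. The leading window is the largest change of a run, so a longer run has a larger value by that definition. The medians therefore do not show that longer loci changed more.

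A few places on chromosome I lost most of their small RNA. F1, at chrI:8385001-8387000, held 9.8, 13.5 and 7.7 CPM in set-25 libraries and 79.1, 83.2 and 90.0 CPM in N2 libraries. That left 12.3% of the N2 level, with a change of -3.32 ± 0.28 in its leading window (adjusted p = 2.47e-09). F2, at chrI:12506020-12508019, held 19.5, 19.0 and 25.7 CPM in set-25 libraries and 155, 184 and 190 CPM in N2 libraries, a change of -3.08 ± 0.22 (adjusted p = 2.61e-10). F3, at chrI:6820001-6823000, held 29.0, 29.9 and 24.5 CPM in set-25 libraries and 172, 172 and 168 CPM in N2 libraries, a change of -2.96 ± 0.17 (adjusted p = 4.29e-12). The groups lay far apart at each, and the windows on either side held under 6 CPM in both strains. At F1 the window to the left changed by 0.01 (adjusted p = 0.998). The loss was not set by 1 position, since the top bin of F1, F2 and F3 held only 9.46%, 12.7% and 6.41% of the reads. Of 69, 64 and 105 bins with reads, 18, 36 and 29 held enough to be tested, and all of these were lower in set-25. That follows in part from the choice of the loci as lower on the same libraries, so it does not show how evenly the loss was spread.

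In nrde-3 embryos these 3 loci lay above all N2 libraries, and in both strains without set-25 they were low. F1 held 10.7, 12.6 and 12.9 CPM in set-25;nrde-3 libraries and 127, 136 and 152 CPM in nrde-3 libraries, a change of -3.70 ± 0.27 (adjusted p = 8.69e-11). F2 held 22.2, 19.7 and 23.2 CPM in set-25;nrde-3 libraries and 225, 193 and 240 CPM in nrde-3 libraries, a change of -3.42 ± 0.23 (adjusted p = 2.11e-11). F3 changed by -2.67 ± 0.17 between the same strains (adjusted p = 5.61e-12). These falls were measured in libraries that set-25 against N2 does not use. In met-2 embryos, which lack the methyltransferase that gives the lower methylated forms of lysine 9, F1 and F3 averaged 9.1 ± 2.3 and 35.8 ± 8.2 CPM. F2 was at 561 ± 67.7 CPM in met-2, above all N2 libraries.

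A pair of loci near each other on chromosome II was left with under 30% of its N2 level. F4, at chrII:1987017-1991016, held 38.4, 34.6 and 40.4 CPM in set-25 libraries and 127, 125 and 130 CPM in N2 libraries, with a change of -1.96 ± 0.19 (adjusted p = 3.89e-08). F5, at chrII:2003017-2005016, held 25.8, 21.3 and 20.2 CPM in set-25 libraries and 71.4, 81.3 and 82.2 CPM in N2 libraries (-1.89 ± 0.17, adjusted p = 6.21e-09). In the nrde-3 background F4 averaged 53.4 ± 7.5 CPM in set-25;nrde-3 and 291 ± 15.9 CPM in nrde-3, and F5 averaged 29.0 ± 5.0 CPM in set-25;nrde-3 and 181 ± 24.1 CPM in nrde-3. Changes there were -2.05 ± 0.18 and -2.67 ± 0.16 (adjusted p = 3.57e-09 and 2.80e-12). F7, near the left end of chromosome I at chrI:59001-61000, held 35.2, 45.0 and 41.4 CPM in set-25 libraries and 135, 142 and 133 CPM in N2 libraries (-1.76 ± 0.16, adjusted p = 2.02e-08). In the nrde-3 background its fall was -1.03 ± 0.16 (adjusted p = 3.24e-05). F6, at chrI:9375001-9376000, was a scarce locus with 4.5, 4.9 and 2.1 CPM in set-25 libraries and 15.1, 13.5 and 14.5 CPM in N2 libraries.

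**Figure D3:**
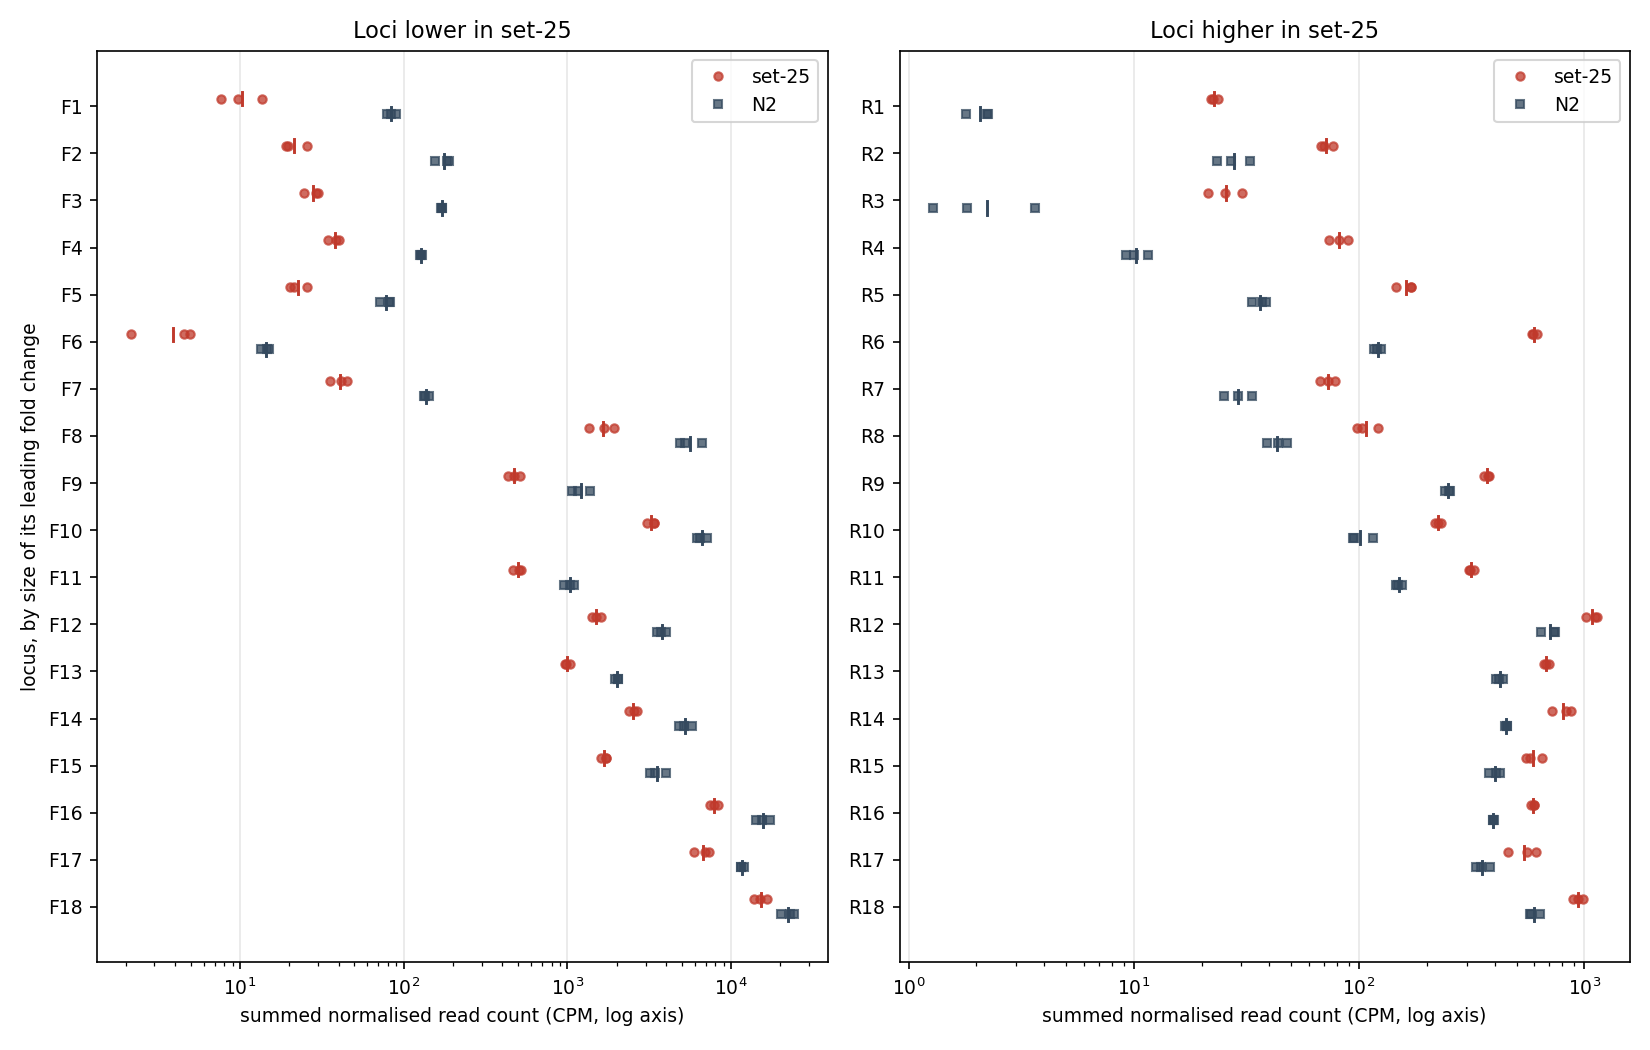
Summed level of each described locus in every library (CPM, log axis) for set-25 (circles) and N2 (squares), with the mean as a short line. The groups do not overlap at any of the 36 loci, which follows from their choice, since they do not overlap in any called window. Over all windows tested this was so for 12.1% on the higher side and 13.3% on the lower. The set-25 means run from 12.2% of the N2 mean at F2 to 67.5% at F18 among the lower loci.

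Most of the abundant loci described kept a larger part of their level. These were picked as long runs or large differences, while F1 to F7 were picked by fold change, so this follows in part from the choice. F8, also abundant, was left with 29.6% of its N2 level. F10, at chrI:13408020-13413019, ran over 5 windows and held 3359, 3354 and 3040 CPM in set-25 libraries and 7130, 6450 and 6178 CPM in N2 libraries. Its windows changed by -0.58 to -1.57, and the leading one by -1.57 ± 0.15 (adjusted p = 4.26e-08). F13, at chrI:229001-233000, held 974, 1036 and 971 CPM in set-25 libraries and 1961, 2031 and 2026 CPM in N2 libraries, which left 49.5% (-1.25 ± 0.12, adjusted p = 5.35e-08). F11, the longest lower run with 6 windows at chrI:12567020-12573019, held 521, 504 and 463 CPM in set-25 libraries and 959, 1093 and 1043 CPM in N2 libraries, and its windows changed by -0.95 to -1.54. F12, at chrII:2996017-2999016, held 1490, 1610 and 1409 CPM in set-25 libraries and 4019, 3729 and 3525 CPM in N2 libraries (-1.49 ± 0.22, adjusted p = 5.16e-05). In F12, 1 bin held 70.6% of the reads, while in F13 the top bin held 5.59%. F9, at chrII:310017-315016, ran over 5 windows and held 471, 511 and 434 CPM in set-25 libraries and 1370, 1163 and 1073 CPM in N2 libraries, which left 39.3%. Its most abundant window changed by -1.38 ± 0.23 (adjusted p = 2.64e-04), and its leading window, at only 8.4 ± 3.4 CPM in set-25 and 28.1 ± 8.0 CPM in N2, by -1.71 ± 0.32 (adjusted p = 7.59e-04).

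The largest cluster of falls lay on chromosome II, where 4 lower loci with 9 windows lay within 21 kb at chrII:3291017-3312016. Together these held 14152, 14767 and 13058 CPM in set-25 libraries and 30336, 27248 and 25459 CPM in N2 libraries. F16, at chrII:3306017-3308016, carried most of it, with 7850, 8357 and 7385 CPM in set-25 libraries and 17194, 15347 and 14267 CPM in N2 libraries. Its abundant window changed by -0.99 ± 0.18 (adjusted p = 7.91e-04) and its scarce one, at 70.7 ± 10.8 CPM in set-25 and 144 ± 28.6 CPM in N2, by -1.02 ± 0.17 (adjusted p = 3.10e-04). F14 and F15, its neighbours on either side at chrII:3309017-3312016 and chrII:3302017-3305016, were left with 48.0% and 47.5% of their N2 levels, close to the 50.4% of F16. Another abundant locus, F17 at chrII:1819017-1821016, held 7277, 6905 and 5923 CPM in set-25 libraries and 11996, 11495 and 11467 CPM in N2 libraries. Its abundant window changed by -0.80 ± 0.16 (adjusted p = 0.00153). The leading window held only 12.8 ± 2.5 CPM in set-25 and 25.5 ± 4.3 CPM in N2, and its change of -0.99 ± 0.25 (adjusted p = 0.0158) did not pass when set-25 replicate 1 or 2 or N2 replicate 1 or 2 was left out, with adjusted p of 0.117, 0.101, 0.0767 and 0.0890. Loci of the same direction within 10 kb of each other formed 26 such clusters among the falls, holding 61 of 149 loci, and 20 among the rises, holding 43 of 136.

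In nrde-3 embryos F8 to F10, F12 and F14 to F17 lay below all N2 libraries. F16 averaged 3370 ± 364 CPM in set-25;nrde-3 and 4366 ± 1982 CPM in nrde-3, with -0.37 ± 0.18 in its abundant window, which did not pass the threshold (adjusted p = 0.286). F12 averaged 710 ± 103 CPM in set-25;nrde-3 and 932 ± 387 CPM in nrde-3 (-0.62 ± 0.22, adjusted p = 0.0966). F9 averaged 90.0 ± 8.4 CPM in set-25;nrde-3 and 146 ± 65.7 CPM in nrde-3, with 0.19 ± 0.40 in its leading window (adjusted p = 0.877) but -1.25 at the window that holds most of its reads, chrII:311017-312016 (adjusted p = 0.00284). F13 was different, since nrde-3 libraries held 2239, 2390 and 2299 CPM, above all N2 libraries, and set-25;nrde-3 libraries held 1235, 1331 and 1246 CPM (-1.06 ± 0.12, adjusted p = 5.31e-07). F10 averaged 1710 ± 32.3 CPM in set-25;nrde-3 and 2254 ± 414 CPM in nrde-3 (-0.57 ± 0.15, adjusted p = 0.0199). In met-2 embryos F9, F10 and F12 averaged 31.0 ± 7.7, 566 ± 19.0 and 339 ± 7.5 CPM, below their set-25 libraries.

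A few lower loci were single points. F8, at chrI:6172001-6173000, had 99.8% of its reads in 1 bin and held 1360, 1920 and 1677 CPM in set-25 libraries and 6650, 5257 and 4855 CPM in N2 libraries (-1.76 ± 0.31, adjusted p = 5.01e-04). F18, at chrII:2452017-2453016, had 99.9% in 1 bin and held 16643, 15003 and 13691 CPM in set-25 libraries and 20069, 24318 and 22745 CPM in N2 libraries (-0.57 ± 0.13, adjusted p = 0.00919). That small change was lost without set-25 replicate 3 (adjusted p = 0.0724) or N2 replicate 2 (adjusted p = 0.0635). Windows with more than 50% of reads in 1 bin made up 12.1% of the lower windows, 1.36% of the higher windows and 6.31% of all windows tested. For most called windows reads were spread, with a median of 20.6% in the top bin of lower windows, 18.6% in higher windows and 21.1% in all windows tested.

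**Figure D4:**
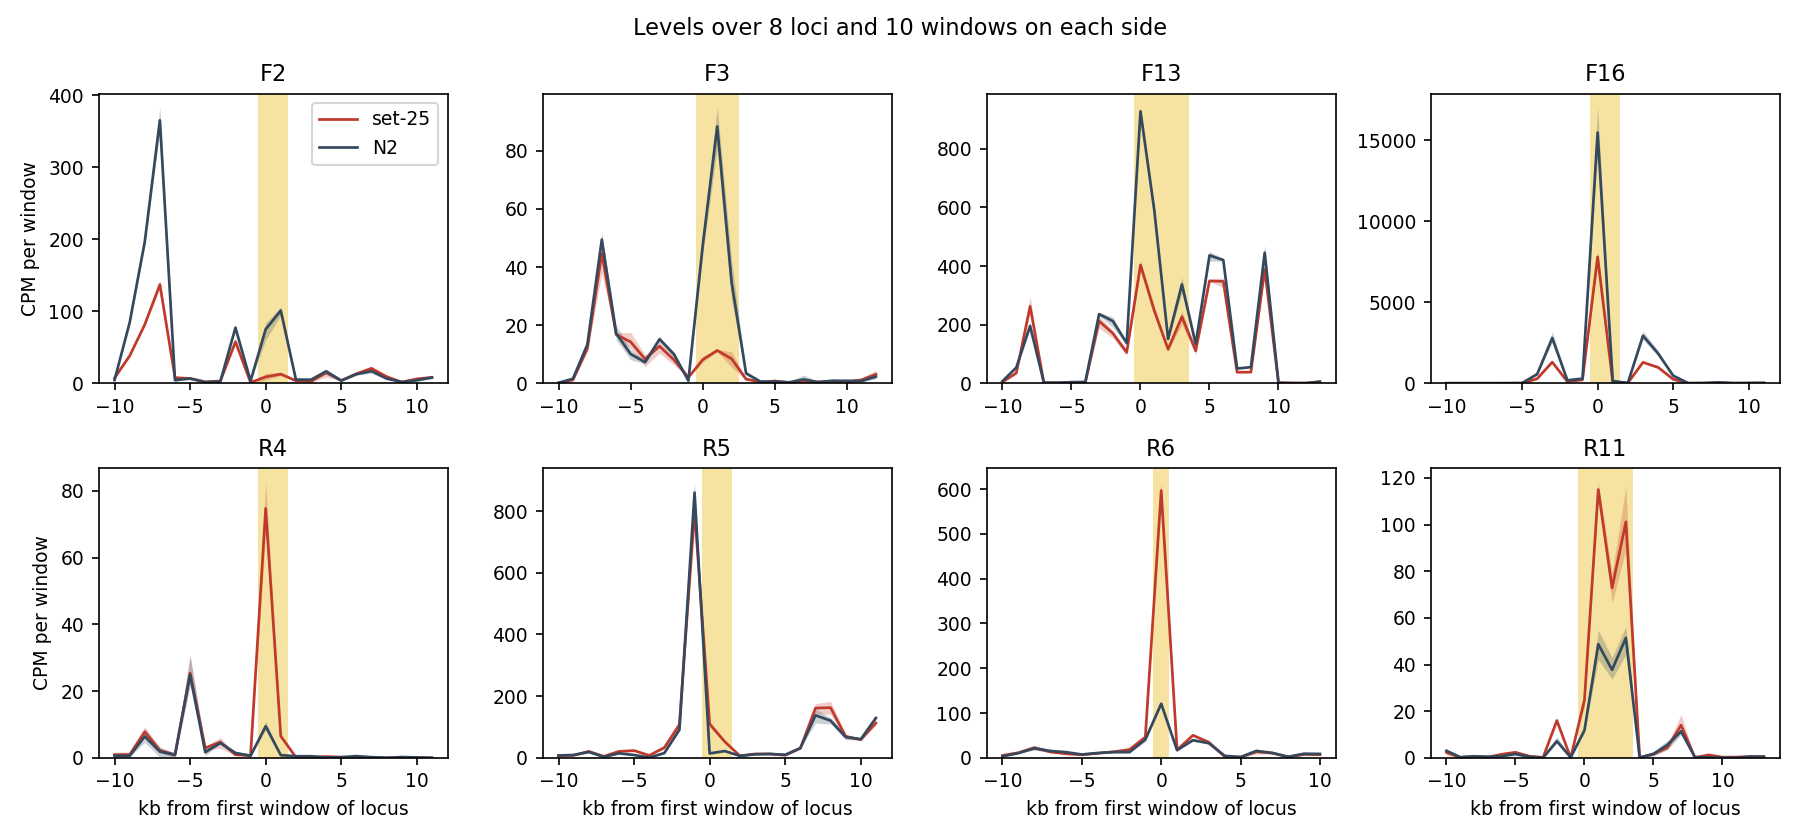
Level in each 1-kb window (CPM, line = mean and band = range of 3 libraries) over 8 loci (shaded) and 10 windows on each side, for set-25 and N2. The 2 lines part inside the shaded locus, which follows from its borders being set by the calls, and mostly run together outside it. At F13 set-25 lay below N2 in several windows outside the locus as well. The window 6 kb from its start held 327, 359 and 357 CPM in set-25 libraries and 417, 418 and 426 CPM in N2 libraries. Left of F2 and F13 and on either side of F16 other lower loci come into view, and left of R5 and R11 other higher loci do. Directly left of R5 an abundant window lies at like levels in both strains.

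Outside the right end, the loci that rose most by fold held little small RNA in N2. R1, at chrI:14678020-14680019, held 22.0, 23.7 and 22.4 CPM in set-25 libraries and 1.8, 2.2 and 2.2 CPM in N2 libraries, from 227 and 31 reads over the 3 libraries each. Its leading window rose by 3.74 ± 0.29 (adjusted p = 6.95e-10). R3, at chrI:11495020-11496019, held 25.5, 21.3 and 30.3 CPM in set-25 libraries and 1.3, 3.6 and 1.8 CPM in N2 libraries (3.42 ± 0.27, adjusted p = 9.63e-10). R2, at chrII:2267017-2270016, held 70.1, 76.5 and 67.7 CPM in set-25 libraries and 23.3, 27.1 and 32.9 CPM in N2 libraries. Its 3 windows rose unequally, by 0.95, 1.41 and 3.46 ± 0.26 (adjusted p of the last = 4.40e-10). The same 3 loci rose when set-25 was lost in nrde-3 embryos, in libraries not used above. R1 averaged 43.4 ± 3.5 CPM in set-25;nrde-3 and 2.3 ± 1.3 CPM in nrde-3 (4.64 ± 0.30, adjusted p = 8.81e-12). R3 averaged 43.7 ± 4.9 CPM in set-25;nrde-3 and 2.6 ± 1.1 CPM in nrde-3 (4.0 ± 0.29, adjusted p = 4.84e-11), and R2 changed by 3.21 ± 0.26 (adjusted p = 6.85e-10). In met-2 embryos R1, R2 and R3 averaged 20.1 ± 2.0, 69.3 ± 1.8 and 20.5 ± 1.6 CPM, near their set-25 levels.

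R4, at chrI:8134001-8136000, held 89.3, 81.2 and 73.2 CPM in set-25 libraries and 9.2, 10.01 and 11.5 CPM in N2 libraries (2.97 ± 0.21, adjusted p = 1.09e-10). Its level in met-2 was higher still, at 259 ± 6.9 CPM. R5, at chrI:11902020-11904019, held 170, 170 and 146 CPM in set-25 libraries and 37.1, 38.5 and 33.3 CPM in N2 libraries (2.94 ± 0.20, adjusted p = 7.00e-11). Directly to its left lay an abundant window that changed by -0.10 (adjusted p = 0.836). R6, a single window at chrI:5271001-5272000, held 616, 585 and 589 CPM in set-25 libraries and 126, 120 and 116 CPM in N2 libraries. It changed by 2.30 ± 0.13 (adjusted p = 3.18e-12), the smallest adjusted p among the rises described. Of its 23 tested bins 20 were called higher, against 1.27% of all bins tested. That follows in part from the choice of R6 on the same libraries. The neighbours of R6 changed by 0.18 and 0.04 (adjusted p = 0.764 and 0.981). In met-2 libraries R6 held 12.8, 13.9 and 18.3 CPM, below all N2 libraries.

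R9 to R18 rose by less, which follows from the order of the names. Most of these were picked as long runs and not by fold change, so length and size of change cannot be compared here. R9, at chrI:11169020-11174019, held 372, 379 and 358 CPM over 5 windows in set-25 libraries and 241, 252 and 252 CPM in N2 libraries. Its outer windows rose by 1.36 ± 0.17 and 1.17 ± 0.25 and its inner ones by 0.35 to 0.94. R11, at chrI:3106001-3110000, held 323, 309 and 310 CPM in set-25 libraries and 155, 149 and 146 CPM in N2 libraries (1.24 ± 0.14, adjusted p = 4.58e-07), and its 4 windows rose by 0.96 to 1.24. R10, at chrI:7528001-7532000, averaged 224 ± 6.5 CPM in set-25 and 101 ± 11.8 CPM in N2 (1.35 ± 0.17, adjusted p = 3.38e-06). R13, at chrI:9722001-9727000, held 695, 677 and 663 CPM in set-25 libraries and 406, 437 and 420 CPM in N2 libraries (0.92 ± 0.15, adjusted p = 1.49e-04). The smallest rises described, R12 to R18, had changes of 0.65 to 1.00, and none of the 7 passed the threshold when library totals alone set the scale, with adjusted p of 0.103 to 0.801. R15 also lost its call without set-25 replicate 1 or N2 replicate 1 or 3, with adjusted p of 0.126, 0.0843 and 0.0648. R7 and R8 had 3 windows each and stood at 250% and 248% of their N2 level. R14, on chromosome II at chrII:3812017-3814016, averaged 806 ± 77.1 CPM in set-25 and 449 ± 6.0 CPM in N2 (0.85 ± 0.10, adjusted p = 8.38e-07). R16, at chrI:14882020-14886019, averaged 593 ± 10.05 CPM in set-25 and 395 ± 2.0 CPM in N2, and stood at 3059 ± 96.2 CPM in met-2. R18, the most abundant higher window outside the right end, averaged 937 ± 46.4 CPM in set-25 and 597 ± 35.6 CPM in N2 at chrI:13979020-13980019.

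In 4 places a window that fell lay directly beside one that rose. At chrII:1662017-1663016 the level averaged 20.6 ± 0.907 CPM in set-25 and 62.9 ± 4.64 CPM in N2, a change of -1.61 ± 0.19 (adjusted p = 1.57e-06). The next window, chrII:1663017-1664016, which opens R7, averaged 20.6 ± 1.62 CPM in set-25 and 5.62 ± 0.685 CPM in N2, a change of 1.87 ± 0.26 (adjusted p = 1.86e-05). In set-25 the pair was thus at like levels, while N2 had a steep step between the windows. In the nrde-3 background this pair changed in the same directions, by -1.31 and 1.28 (adjusted p = 1.78e-05 and 0.00217). The other pairs began at chrI:3245001-3246000, chrI:13989020-13990019 and chrII:2150017-2151016. At the first of these the fall of -1.31 ± 0.21 stood beside a rise of 0.95 ± 0.24 (adjusted p = 9.52e-05 and 0.0145). Without nrde-3 its falling side fell again, by -1.01 (adjusted p = 8.52e-04), while the other side changed by -0.05 (adjusted p = 0.946). Both sides at chrI:13989020-13990019 and the next window passed in the same directions there, at 0.46 and -1.90 (adjusted p = 0.00243 and 2.15e-06). At chrII:2150017-2151016 the falling side changed by -0.30 (adjusted p = 0.193) and the rising side rose again (adjusted p = 0.00683).

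Loss of set-25 was next read in worms without nrde-3, which shares no library with set-25 against N2. There 3.77% of windows tested were called higher and 3.18% lower once set-25 was missing too, or 404 and 341. Of the 224 windows that fell in set-25, 102 fell again and 4 rose. Of the 221 that rose, 106 rose again and 6 fell. As a share of the calls in the nrde-3 background, the repeated falls were 102 of 341 and the repeated rises 106 of 404. The median change in that background was -0.57 over the windows that fell, 0.61 over those that rose and 0.01 over all windows tested, and 197 of 224 and 195 of 221 had the same sign. All strains share the filter, the scaling and the spread of the model. By locus, the leading window passed in the same direction at 10 of the 18 lower and 12 of the 18 higher loci described. F1 to F8, F10 and F13 were those 10. At F8 the groups overlapped, with 1067, 1145 and 1250 CPM in set-25;nrde-3 libraries and 1583, 1127 and 4349 CPM in nrde-3 libraries (-1.03 ± 0.31, adjusted p = 0.0403). In the other 8 lower loci described the leading window changed by -0.63 at F11 to 0.19 at F9. Those changes did not pass, though 5 of the 6 windows of F11 did.

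**Figure D5:**
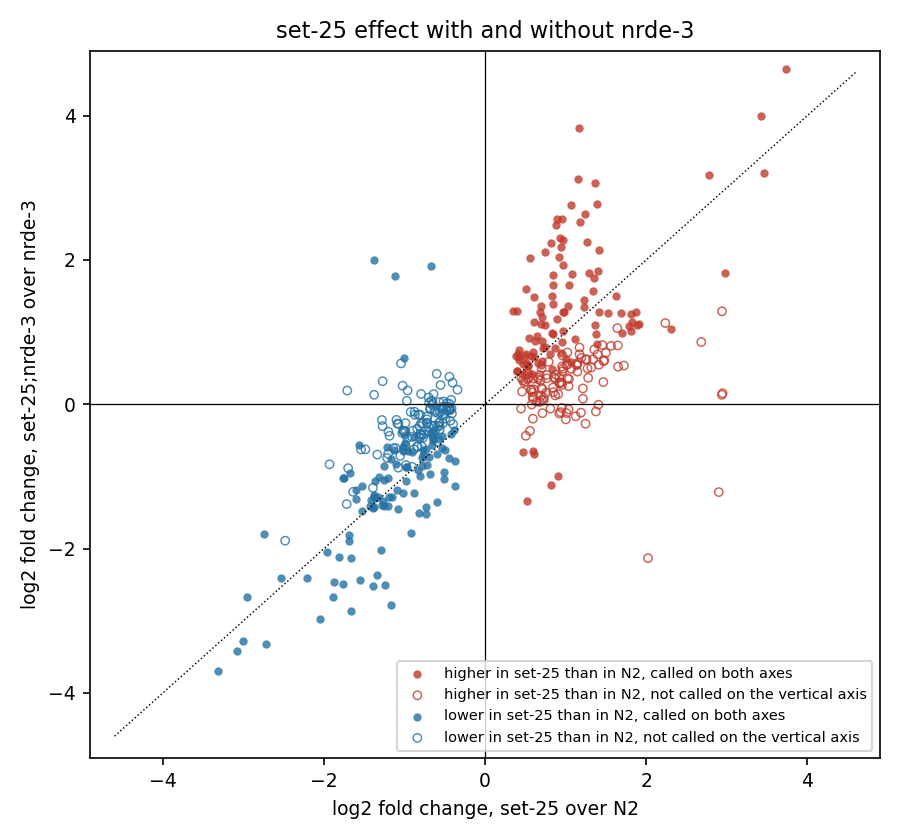
Log2 fold change of set-25;nrde-3 over nrde-3 (vertical) against that of set-25 over N2 (horizontal) for the 445 windows called in the latter, filled where the vertical value passed the threshold too. Most points lie at the lower left and upper right, where both changes have the same sign.

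The size of the effect differed between backgrounds at 143 of the windows tested, or 1.33%, and at the leading window of 7 of the 36 loci described. That count of windows was 51 with library totals as the scale, 312 without the met-2;nrde-3 libraries and 381 with voom quality weights. R9 and R11 rose further without nrde-3, by 3.06 ± 0.19 and 2.63 ± 0.15. R9 averaged 647 ± 6.6 CPM in set-25;nrde-3 and 205 ± 10.2 CPM in nrde-3, and R11 averaged 433 ± 9.1 CPM in set-25;nrde-3 and 75.9 ± 4.9 CPM in nrde-3. R5 held 38.3, 56.9 and 52.0 CPM in set-25;nrde-3 libraries and 46.0, 51.4 and 55.8 CPM in nrde-3 libraries and did not pass the threshold there (0.13 ± 0.21, adjusted p = 0.833). R12 held 614, 585 and 611 CPM in set-25;nrde-3 libraries and 1100, 1083 and 1004 CPM in nrde-3 libraries. Its leading window changed by -0.21 ± 0.15 there (adjusted p = 0.514), while its other 3 windows fell, by -0.65 to -1.34, so the locus that rose in set-25 was lower in the double mutant. The leading window of R13 changed by -0.13 ± 0.17 (adjusted p = 0.792). R6 averaged 518 ± 36.1 CPM in set-25;nrde-3 and 251 ± 9.8 CPM in nrde-3, a smaller rise of 1.05 ± 0.13 (adjusted p = 8.60e-07).

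At the finer scale of 20-bp bins, 38100 were tested, of which 1.27% were higher and 1.08% lower in set-25, or 485 and 412. The count of lower bins was 176, 212 and 208 without set-25 replicates 1, 2 and 3, 182, 199 and 260 without N2 replicates 1, 2 and 3, and 761 without the met-2;nrde-3 libraries in the fit. Of the higher bins 351 lay in the right end, and of the 134 others 128 lay in windows called higher. Of the 411 lower bins outside the right end, 397 lay in windows called lower. In the lower loci described, 710 of 735 tested bins were lower in set-25 and 198 of these passed the threshold. In the higher loci, 688 of 742 were higher and 81 passed. The windows and loci are sums of these bins and were called on the same libraries. Like directions of their bins follow in part from that choice and are a description only.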

How the data were processed

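Counts are whole numbers of reads per 20-bp bin and library in 1 table deposited by the authors. Per the series text, FASTX-Toolkit tools removed adapters and collapsed reads, and QuasR placed them on release WS220 (ce10 per the submitters' processing notes). Tool versions are not given in the sources used here. Scaling by library total and selection by length are also named there, but the deposited values are whole numbers without length classes. The annotation at hand was of another build, so no gene names or sequences were used.

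Windows were groups of bins with the same floor of (start - 1)/1000, tested in edgeR 4.0.16 (R 4.3.3) with all 18 libraries and 1 coefficient per strain. The fit used filterByExpr (minimum count 10), TMM scaling and glmQLFTest, with Benjamini-Hochberg adjustment and a threshold of 0.05. SE is the size of the change divided by the square root of F. The test was tried on simulated data. Described loci were, per direction and outside the last 13 windows of chromosome I, the 8 longest runs, the 8 largest fold changes (windows without overlap of the groups and above the median level) and the 4 largest differences. The members, lists and tests were chosen with earlier results of these data known. Alternatives used RLE factors, library totals, DESeq2 1.42.0, limma 3.58.1, other filters, grids, sample sets and each library left out. Tables and plots used pandas 2.3.3 and matplotlib 3.10.9.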

Additional observations from a re-analysis of the deposited data

Results flagged for a closer look

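At the leading windows of 7 described loci the effect of losing set-25 differed between worms without and with nrde-3, by a test of that difference in edgeR, adjusted over all windows. The difference, the change in the nrde-3 background minus that in the wild-type background, was 1.00 ± 0.21 at F10 (adjusted p = 0.00883), 1.70 ± 0.26 at R9 (adjusted p = 1.73e-04) and 1.39 ± 0.20 at R11 (adjusted p = 1.03e-04). It was -2.81 ± 0.29 at R5 (adjusted p = 3.84e-07), -1.26 ± 0.18 at R6 (adjusted p = 6.93e-05), -1.21 ± 0.20 at R12 (adjusted p = 6.29e-04) and -1.05 ± 0.22 at R13 (adjusted p = 0.00894). These loci were chosen for their change between set-25 and N2, libraries that this difference also uses.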

How the results depend on the processing

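Counts of calls in set-25 against N2 stayed within 1.5 times of those given under RLE factors, DESeq2, a shifted grid, runs that may hold 1 uncalled window and, for windows and loci, under other filters and omission of the right end. No sign changed among the called windows under RLE factors, DESeq2, the other filters or omission of the right end. Library totals alone gave 22 higher and 1130 lower loci besides the 35 and 1931 windows, and 2019 lower bins, and 36 called windows changed sign. The cause was not tested. In the nrde-3 background it gave 124 higher and 1485 lower windows, and 51 differences between backgrounds. Without the met-2;nrde-3 libraries in the fit there were 411 lower windows, 209 higher and 274 lower loci, 761 lower bins, 615 higher and 519 lower windows in the nrde-3 background and 312 differences. With only set-25 and N2 there were 505 and 523 windows, 344 and 338 loci and 957 and 1021 bins, higher and lower. With voom quality weights, added after seeing the data, there were 484 and 525 windows, 325 and 333 loci, 936 and 1064 bins and 381 differences. The cause of these larger counts was not tested. The right end left out gave 116 higher bins, the right end holding most others, and the stricter filter gave 643 lower bins, with fewer bins tested.

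With each library left out in turn, higher windows numbered 125 to 156 and lower windows 161 to 180, higher loci 76 to 96 and lower loci 107 to 120, higher bins 325 to 416 and lower bins 176 to 260. Higher windows fell by over 1.5 times without set-25 replicate 1 or 2 or N2 replicate 1, 2 or 3, at 142, 147, 125, 136 and 140, and higher loci without N2 replicate 1, 2 or 3, at 76, 87 and 85. Lower bins did so without each of the 6 libraries. In the nrde-3 background higher windows numbered 285 to 380 and lower windows 217 to 321, the lowest without set-25;nrde-3 replicate 3, and 226 without nrde-3 replicate 3. Differences between backgrounds numbered 105 to 158. The share of the right end exceeded N2 by 28.3 to 33.3 percentage points with a library left out, by 30.4 with the last 20 windows and by 30.4 without the most abundant bin. For the described loci, 556 of 572 values stayed on their side of the threshold, 16 lost it and each kept its sign. With the replicate number as a block, 198 windows were higher and 211 lower and every described locus kept its call. Deviations of same-numbered libraries correlated at -0.06, 0.000887 and -0.0436, so no pairing by number was seen. The median window held only 8.6 CPM in N2, where counting noise is large, so a pairing could have been missed. Calls depended on depth. Among the 2146 scarcest windows tested, with levels up to 3.05 CPM, 3 were higher and 1 lower, against 134 and 160 among the 2146 most abundant.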
